A study of Mus musculus with 36 samples.

Results

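Levels of 9 genes that drive or time mitosis were followed in the blood of mice that had received x-rays, neutrons, or both. These were the co-activators of the anaphase-promoting complex or cyclosome (APC/C), Fzr1 and Cdc20, its ubiquitin-conjugating enzymes Ube2c and Ube2s, its inhibitor Fbxo5, the mitotic cyclins Ccna2, Ccnb1, and Ccnb2, and Ccnf, a cyclin-like F-box protein. Members were chosen by gene symbol on the array, and all 9 were among the 31093 genes with a probe. They had 13 of the 39429 probes. All 9 passed the filters on background and variation, as did 15085 genes in all.

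The APC/C is a ubiquitin ligase that marks mitotic cyclins and securin for destruction, which allows chromosomes to separate and cells to leave mitosis. CDC20 activates it in early mitosis, whereas FZR1 (also known as CDH1) activates it from late mitosis through G1 phase. Most cells in circulating blood do not divide, but immature red cells and some activated or progenitor cells carry transcripts of the mitotic program.

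Each of the 36 arrays held blood RNA from 1 male C57BL/6J mouse, 8 to 10 weeks old, with 6 mice in each of 6 groups. Blood was taken by cardiac puncture on day 7. Controls were sham-irradiated, 1 group received 3 Gy of x-rays, and 3 groups received mixed x-ray/neutron fields of 3 Gy in total with 5, 15, or 25% neutrons (0.15, 0.45, and 0.75 Gy of neutrons). The sixth group received 0.75 Gy of neutrons and no x-rays (neutron alone). Its labels give the neutron share as 100%, and the study's methods as 83% because the source also emits photons. Neutron alone therefore differed from the 25% field in total dose, while the neutron dose was equal.

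Levels are given as log2 intensity relative to the median of the array, so a difference of 1 is a 2-fold change. A gene passed the test when limma gave p below 0.001 and an adjusted p (Benjamini-Hochberg, over 15085 genes) below 0.05. Between 15569 and 21294 probes per array were well above background. Controls had 19492 to 20724, x-rays 16548 to 19307, and neutron alone 16444 to 18989, while the mixed fields overlapped the controls. The array medians (log2) that were subtracted were 4.33 to 4.70 in controls, 2.94 to 4.23 after x-rays, and 3.22 to 3.93 after neutron alone. A probe of equal intensity on 2 arrays is therefore placed higher on the array with the lower median. The part of this in the changes from controls was not tested. The arrays were scanned in 4 sessions. All arrays of the 25% field and neutron alone were scanned in a session of their own, so that for these groups the session and the exposure cannot be told apart in comparisons with controls or x-rays. Of the x-ray and control arrays, 5 of each shared a session. Most arrays of the 5% and 15% fields (5 of each) were scanned in a session that held no control or x-ray arrays. The blood held transcripts of many cell types. All 8 B-cell markers and all 8 T-cell markers were measured, as were 9 of the 10 red-cell precursor markers listed. In bulk blood, fewer cells of a type and less RNA per cell cannot be told apart.

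Against controls, 5 of the 9 genes rose after x-rays, 6 in the 5% field, 7 in the 15% field, 8 in the 25% field, and 5 after neutron alone, and 0 fell. Of all genes tested, 12.9% rose after x-rays, 9.04% in the 5% field, 12.6% in the 15% field, 10.9% in the 25% field, and 16.1% after neutron alone, while 16.9, 14, 16.5, 13.9, and 20.5% fell in the same order. The members' median change was 1.70, 1.83, 2.15, 1.89, and 1.42 on the log2 scale in the same order, beside medians of -0.11, -0.08, -0.02, -0.12, and -0.12 over all genes. Setting the members beside all genes is not a test, because members were chosen with earlier results of these data known. The study had named Fzr1, Ube2c, and Ccna2 as upregulated after x-rays and after neutron alone. Fzr1, Ube2c, Ube2s, Ccna2, and Ccnb2 passed the test in all 5 comparisons, and their exposed and control arrays did not overlap in any of them. Exposed and control arrays did not overlap in 5 of the 9 genes after x-rays, 7 in each of the 3 mixed fields, and 5 after neutron alone, all higher, compared with 14.5, 7.72, 10.9, 12.2, and 15% of all genes. Fbxo5 passed in none of the 5 comparisons. With slide or scan session as a block, the 5% and 15% fields rest on 1 exposed and 1 control array, so only the sizes of the changes are given here. For Fzr1, Ube2c, Ube2s, Ccna2, and Ccnb2 they were 2.10, 1.31, 1.62, 2.35, and 3.33 in the 5% field. In the 15% field they were 2.08, 1.26, 1.07, 2.43, and 3.41. In each field 8 of the 9 genes were higher than the control, and Fbxo5 was lower (-1.13 and -0.63). The normalized table that the authors deposited holds 8 of the 9 genes (all but Fbxo5), and other probes represent Fzr1 and Ube2c in it. There the Ube2c change in the 5% field was 1.00 and did not pass (limma adjusted p = 0.0126). Nor did the Ccnf change in the 25% field (1.15, limma adjusted p = 0.0147). The 5 comparisons share their 6 control arrays and are therefore not independent of each other.

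**Figure D1:**
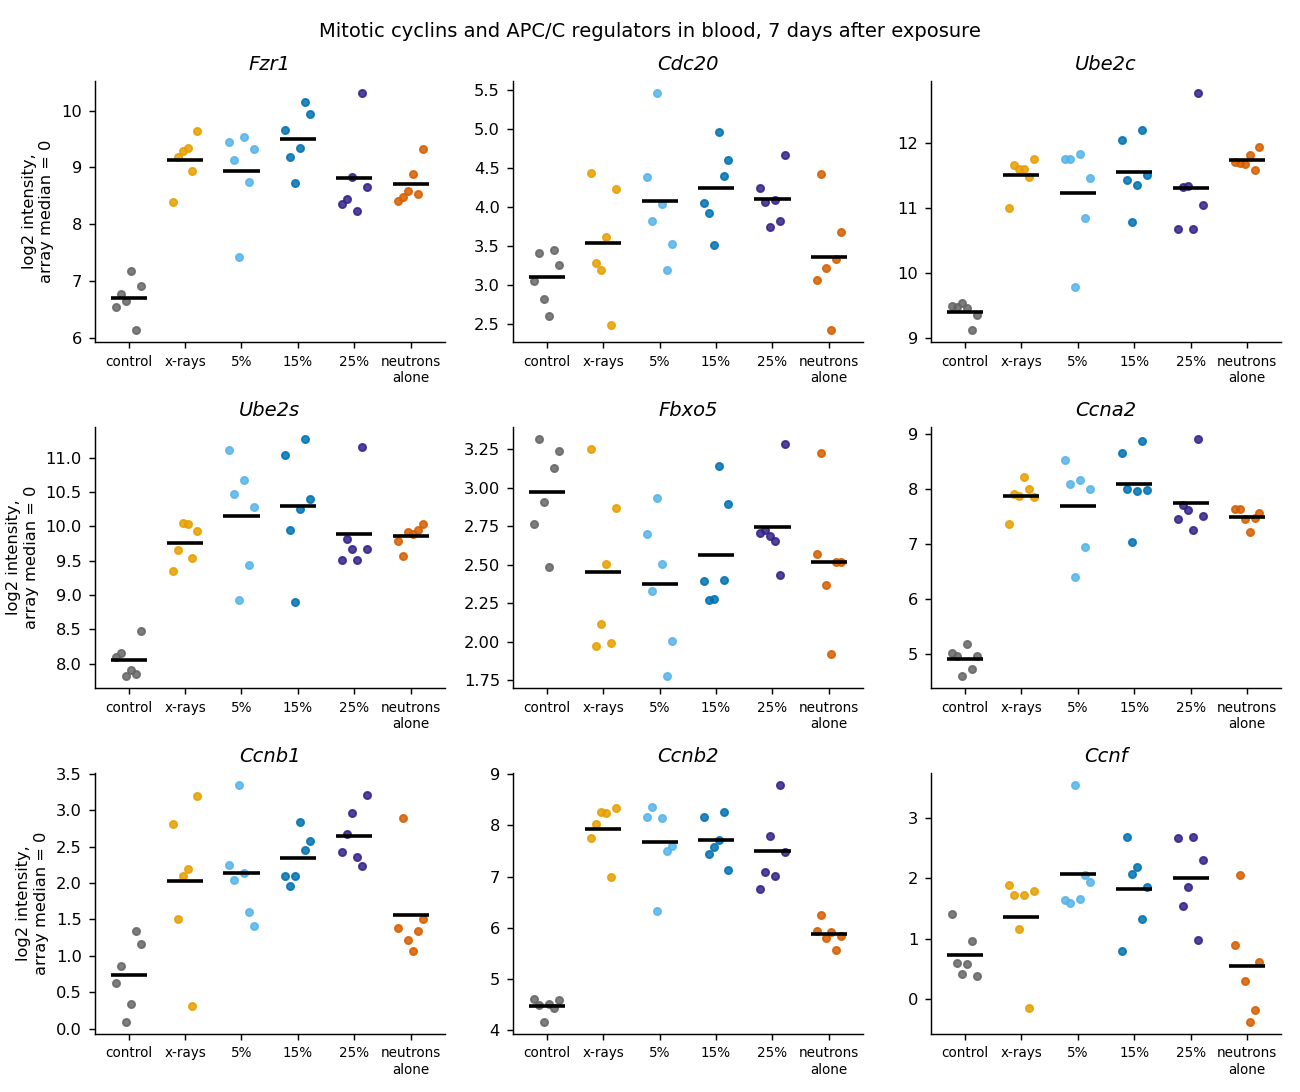
Log2 intensity (y axis, array median at 0) of the 9 genes on each of the 36 arrays, by group (x axis, 6 arrays each). Points are single mice and bars are group means. Ccna2 was between 4.61 and 5.18 in controls and between 6.41 and 8.91 in exposed mice, and Ccnb2 after neutron alone (5.56 to 6.24) lay between the controls and all the other exposures.

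Fzr1, the co-activator of late mitosis and G1 phase, rose in every exposure. In controls its lowest, median, and highest levels were 6.14, 6.71, and 7.18. The corresponding levels were 8.39, 9.24, and 9.63 after x-rays, 7.42, 9.23, and 9.54 in the 5% field, and 8.72, 9.50, and 10.14 in the 15% field. They were 8.24, 8.55, and 10.31 in the 25% field and 8.41, 8.56, and 9.32 after neutron alone. Every exposed mouse was above every control. The log2 change ranged from 2.00 ± 0.20 (SE; limma adjusted p = 3.47e-06) after neutron alone to 2.80 ± 0.27 (limma adjusted p = 3.92e-06) in the 15% field. A further Fzr1 probe also passed in all 5 comparisons, with smaller changes (1.46 after neutron alone and 2.21 after x-rays).

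Cdc20, the co-activator of early mitosis, behaved differently. Its lowest, median, and highest levels were 2.61, 3.16, and 3.45 in controls, 2.50, 3.45, and 4.44 after x-rays, and 2.42, 3.29, and 4.43 after neutron alone, so that these groups overlapped. In the 15% field the levels were 3.52, 4.23, and 4.97, and in the 25% field 3.75, 4.09, and 4.67, all above the highest control. Cdc20 rose by 1.14 ± 0.27 (limma adjusted p = 0.00281) in the 15% field and by 1.01 ± 0.22 (limma adjusted p = 0.00216) in the 25% field. The change was 0.97 (95% CI 0.24 to 1.70) in the 5% field, 0.44 (-0.23 to 1.12) after x-rays, and 0.26 (-0.35 to 0.87) after neutron alone, none of which passed. The calls were near the threshold. In the 15% field the call held when 1 of 2 arrays was left out (15% replicates 2 and 3) and was lost without any of the other 10, and in the 25% field it was lost without any 1 of 6 arrays.

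Ube2c and Ube2s act in sequence on the APC/C, the former placing the first ubiquitins and the latter extending the chain. Ube2c levels (lowest, median, highest) were 9.13, 9.47, and 9.54 in controls, 11.01, 11.60, and 11.75 after x-rays, and 11.58, 11.70, and 11.93 after neutron alone. They were 9.79, 11.61, and 11.83 in the 5% field, 10.79, 11.47, and 12.21 in the 15% field, and 10.67, 11.18, and 12.77 in the 25% field. No exposed mouse overlapped the controls. The rise was 4.29-fold after x-rays (log2 2.10 ± 0.18, limma adjusted p = 2.21e-06) and 5.01-fold after neutron alone (log2 2.32 ± 0.12, limma adjusted p = 5.6e-08). A further Ube2c probe, well above background on all 36 arrays, had mean levels of 9.08 in controls, 11.19 after x-rays, and 10.92 after neutron alone. By that probe neutron alone was thus below x-rays, the reverse of the order above. Its lowest mouse in the 5% field (9.19) was below its highest control (9.26).

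For Ube2s, controls lay between 7.82 and 8.48 (median 8.0). The medians of the exposed groups were 9.79 after x-rays, 10.37, 10.32, and 9.67 in the 5, 15, and 25% fields, and 9.90 after neutron alone, and the lowest exposed mouse was at 8.89. Ube2s rose by between 1.70 ± 0.19 (x-rays, limma adjusted p = 1.79e-05) and 2.25 ± 0.35 (15% field, limma adjusted p = 0.000155). The array annotation places the Ube2s probe at chr9:56286126-56286185 (build mm9), whereas RefSeq has the gene on chromosome 7. Whether the probe also measures a near-identical copy was not tested.

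Fbxo5 (EMI1), which holds the APC/C inactive in S and G2 phase, was lower on average in every exposed group than in controls, without passing the test. Its lowest, median, and highest levels were 2.48, 3.02, and 3.32 in controls, 1.97, 2.31, and 3.25 after x-rays, and 1.92, 2.52, and 3.23 after neutron alone. Medians in the 5, 15, and 25% fields were 2.42, 2.40, and 2.70. Every exposed group overlapped the controls. The array annotation gives no genome position for the probe, and which locus it measures was not tested. The log2 difference was between -0.60 (95% CI -1.13 to -0.07, limma adjusted p = 0.064, 5% field) and -0.23 (-0.67 to 0.22, limma adjusted p = 0.397, 25% field).

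Ccna2 encodes cyclin A2, the partner of CDK2 and CDK1 in S phase and early mitosis. Its lowest, median, and highest levels were 4.61, 4.98, and 5.18 in controls, 7.37, 7.89, and 8.21 after x-rays, and 7.23, 7.52, and 7.65 after neutron alone. In the 5, 15, and 25% fields the medians were 8.05, 7.99, and 7.56, with a lowest mouse of 6.41. All 30 exposed mice were above all controls. The rise was 7.75-fold after x-rays (log2 2.95 ± 0.19, limma adjusted p = 2.78e-07), 9.01-fold in the 15% field (log2 3.17 ± 0.28, limma adjusted p = 2.13e-06), and 6.00-fold after neutron alone (log2 2.58 ± 0.14, limma adjusted p = 5.93e-08).

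Ccnb2 encodes cyclin B2, a CDK1 partner of mitosis, and showed the largest rise of the 9 genes after x-rays and in all 3 mixed fields. Control levels were 4.17, 4.5, and 4.60 (lowest, median, highest). They were 6.98, 8.14, and 8.33 after x-rays, 6.32, 7.87, and 8.35 in the 5% field, 7.13, 7.64, and 8.27 in the 15% field, and 6.77, 7.29, and 8.80 in the 25% field. After neutron alone they were 5.56, 5.88, and 6.24. Neutron alone was thus above every control and below every mouse of the other 4 exposures. The rise was 11.1-fold after x-rays (log2 3.47 ± 0.24, limma adjusted p = 5.08e-07) and 2.67-fold after neutron alone (log2 1.42 ± 0.14, limma adjusted p = 2.76e-06). In rank order of the group means, controls (4.47 ± 0.16, SD, n = 6) were followed by neutron alone (5.89 ± 0.22), the 25% field (7.49 ± 0.74), the 5% field (7.68 ± 0.75), the 15% field (7.72 ± 0.44), and x-rays (7.94 ± 0.51). The last 4 overlapped.

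Ccnb1 encodes cyclin B1, which with CDK1 drives entry into mitosis. Its lowest, median, and highest levels were 0.09, 0.74, and 1.34 in controls, 2.24, 2.55, and 3.21 in the 25% field, and 1.06, 1.36, and 2.90 after neutron alone. After x-rays the mice ranged from 0.31 to 3.20, a wider spread than in any other group. Ccnb1 rose in the 5% (1.40 ± 0.33, limma adjusted p = 0.00381), 15% (1.60 ± 0.26, limma adjusted p = 0.000222), and 25% fields (1.91 ± 0.26, limma adjusted p = 6.71e-05). The change of 1.28 (95% CI 0.38 to 2.19) after x-rays and that of 0.83 (0.16 to 1.5) after neutron alone did not pass. Without x-ray replicate 5 the x-ray change was 1.63 and passed (limma adjusted p = 0.00126). The call in the 5% field was lost when any 1 of 8 of the 12 arrays was left out.

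The Ccnb1 probe used lies at chr13:101548722-101548781 (build mm9), on the chromosome of the gene. The array carries a further pair of probes under the same symbol that its annotation places on chromosome 7, and their sequences are shown because the annotated locus differs. Each has 1 forward reading frame without a stop codon.
A_55_P1952256, chr7:49361734-49361793: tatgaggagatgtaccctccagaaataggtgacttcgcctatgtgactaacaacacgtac
A_55_P2128668, chr7:49362048-49362107: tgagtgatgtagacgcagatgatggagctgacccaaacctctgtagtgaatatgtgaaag

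These probes were well above background on 8 and 9 of the 36 arrays, among them 2 and 4 of the 6 x-ray arrays and 0 of the 6 control and 0 of the 6 neutron alone arrays for both, so that their changes are not given. Which locus they measure was not tested. With all Ccnb1 probes averaged, these included, Ccnb1 passed after x-rays (1.99) and after neutron alone (1.06).

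Ccnf, a cyclin-like protein that serves as the substrate receptor of an SCF ubiquitin ligase, was measured by 1 probe, well above background on 28 of 36 arrays. Controls were at 0.38, 0.59, and 1.42 (lowest, median, highest), x-rays at -0.15, 1.72, and 1.90, and neutron alone at -0.38, 0.46, and 2.06. The 5, 15, and 25% fields had medians of 1.81, 1.97, and 2.08. Ccnf passed the test in the 25% field (1.28 ± 0.31, limma adjusted p = 0.00397), where 5 of 6 mice were above every control, and this call was lost when any 1 of 10 arrays was left out. The change in the 5% field was 1.35 (limma adjusted p = 0.00497, with an unadjusted p of 0.0012), and the groups did not overlap. After neutron alone the change was -0.17 (95% CI -0.95 to 0.60), and it was 0.09 when arrays were scaled on their 75th percentile.

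**Figure D2:**
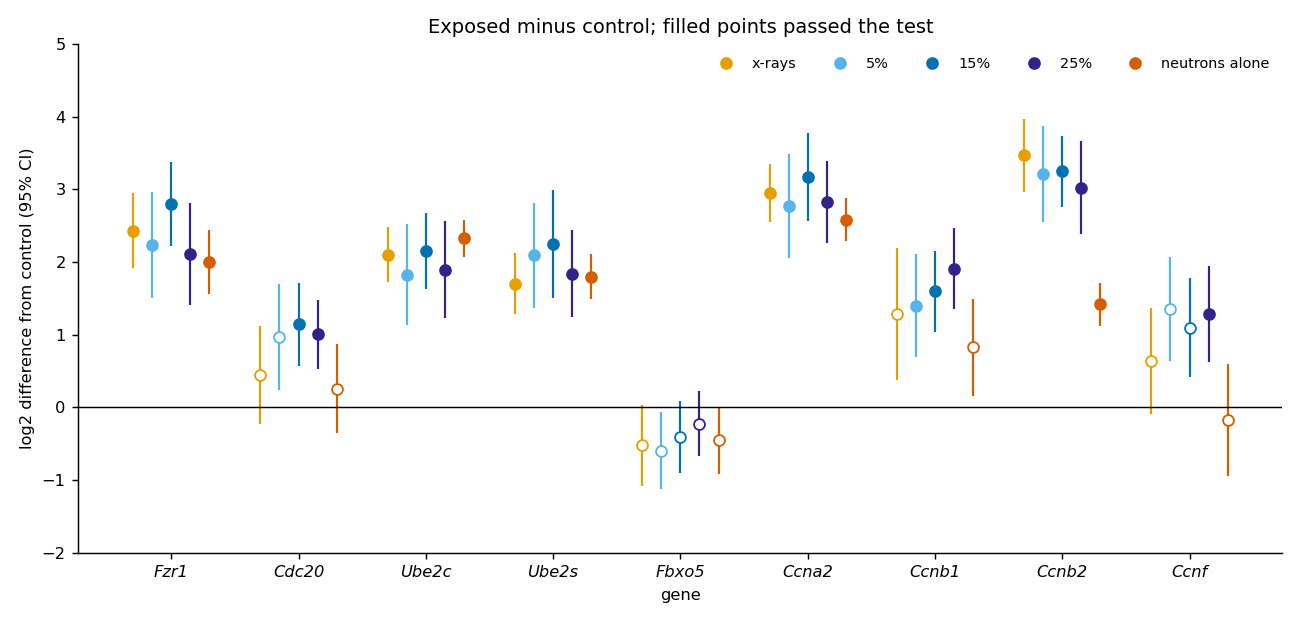
Log2 difference from controls (y axis) for the 9 genes (x axis) in the 5 exposures (colours), with 95% confidence intervals. Filled points passed the test. Fzr1, Ube2c, Ube2s, Ccna2, and Ccnb2 are filled in all 5 exposures, and Ccnb2 after neutron alone (1.42) is lower than in the other 4 (3.02 to 3.47).

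Between exposures, the question was whether the neutron part of a field could be told from x-rays. None of the 9 genes passed by limma between x-rays and the 5, 15, or 25% field, and 0 of 9 had an unadjusted p below 0.05. By the random variance test that the study's methods name, 0 of 9 passed as well. The share of all genes that passed in either direction was 0% at 5%, 4.09% at 15%, and 2.61% at 25%. Differences ranged from -0.27 to 0.72, from -0.22 to 0.70, and from -0.44 to 0.65. These comparisons share the x-ray arrays, and most arrays compared were scanned in different sessions, so that session and exposure cannot be told apart. A single session held 1 array each of x-rays, the 5% field, and the 15% field. There 1 of 9 genes was higher than x-rays in each field, with differences from -1.59 to 0.27 (5%) and from -1.10 to 0.28 (15%).

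Neutron alone differed from x-rays in 1 of the 9 genes, Ccnb2, which was lower, and 6.38% of all genes were lower (6.5% were higher). The Ccnb2 difference was -2.05 (95% CI -2.57 to -1.53, limma adjusted p = 0.0001), which is 4.14-fold, and the groups did not overlap, as in 6.85% of all genes in this direction (exact two-sided permutation p = 0.00216, the smallest that 6 against 6 arrays can give). Against the 25% field, in which the neutron dose was equal and both groups were scanned in the same session, Ccnb2 was lower by 3.04-fold (log2 -1.61, 95% CI -2.26 to -0.96, limma adjusted p = 0.00191), again without overlap (9.23% of all genes in this direction). Here 7.36% of all genes were lower and 4.02% higher. On the slide that held 2 arrays of each of these groups, the Ccnb2 difference was -2.05.

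Ccnb1 (-1.08, limma adjusted p = 0.0193) and Ccnf (-1.46, limma adjusted p = 0.0197) were below the 25% field with 5 of 6 mice each lower than all 25% mice, but did not pass the limit on the unadjusted p. In both genes the exception was neutron alone replicate 2. Without that array, which was singled out after the values were seen, Ccnb1 (-1.34, limma adjusted p = 0.00136) and Ccnf (-1.76, limma adjusted p = 0.00395) passed. The Ccnf probe was well above background on only 2 of the 6 neutron alone arrays. On the slide that held 2 arrays of each group, the difference was -0.58 for Ccnb1 and -0.16 for Ccnf. With all arrays, the Cdc20 difference was -0.75 (95% CI -1.38 to -0.11, limma adjusted p = 0.077). The other 5 genes differed by -0.24 to 0.43, and their intervals included 0. For Ccna2 the interval was -0.80 to 0.31.

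**Figure D3:**
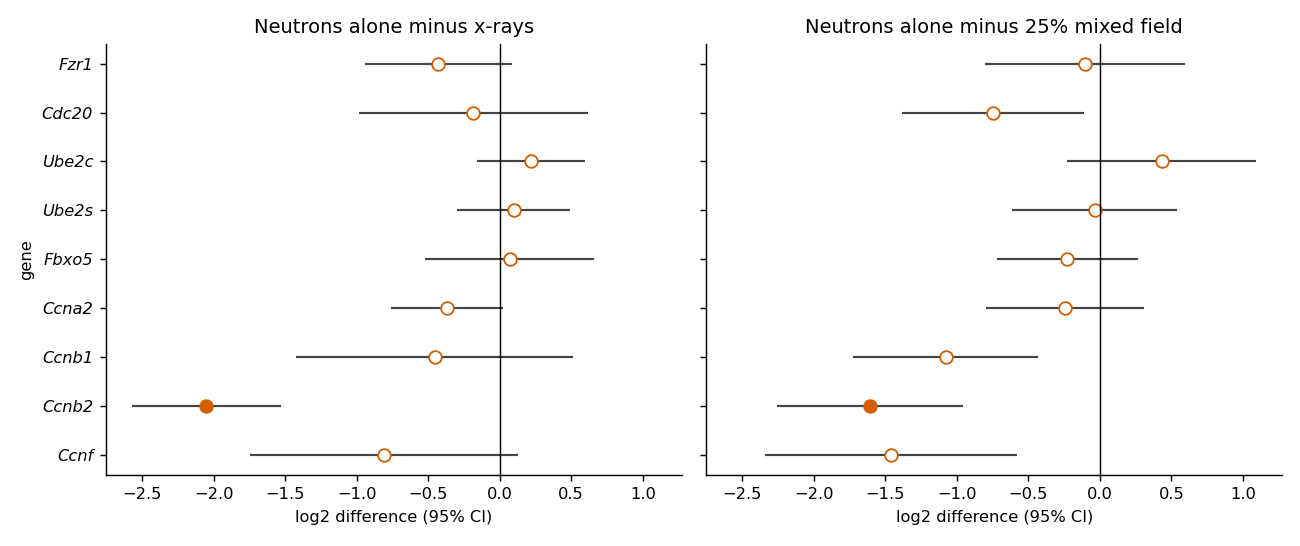
Log2 difference (x axis, with 95% confidence intervals) of neutron alone from x-rays (left) and from the 25% mixed field (right) for the 9 genes (y axis). Filled points passed the test, which Ccnb2 did in both comparisons (-2.05 and -1.61).

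The cyclins were also compared within arrays. Ccnb2 minus Ccna2 on the same array, a measure chosen after the levels were seen, changed from -0.45 ± 0.12 (SD, n = 6) in controls to 0.06 ± 0.55 after x-rays and -0.25 ± 0.34 in the 25% field, and to -1.62 ± 0.23 after neutron alone. Neutron alone did not overlap any of these 3 groups, which is a description without a test. Relative to Ccna2, Cdc20 (-2.32), Ube2s (-0.78), Fbxo5 (-3.04), and Ccnf (-2.76) were also lower after neutron alone than in controls without overlap. The same held after x-rays (-2.51, -1.25, -3.48, and -2.32 in the same order), so that for these genes it was not particular to neutron alone.

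Mice of the same group differed among themselves in a shared way. After the group mean was subtracted, Fzr1, Ube2c, Ube2s, Ccna2, and Ccnb2 varied together over the 36 arrays (Pearson's r between 0.72 and 0.93 in their 10 pairs), and so did Cdc20, Fbxo5, Ccnb1, and Ccnf (0.48 to 0.91 in their 6 pairs). The 20 pairs across these 2 sets had r between -0.60 and 0.10. These are descriptions without a test, because all genes of an array share its RNA and its centring, and the sets were formed after the values were seen. The sets also differed in signal level. Among all genes tested, control levels were at percentiles 69.2 (Ccnb2) to 96.0 (Ube2c) in the first set and 22.8 (Ccnf) to 52.9 (Cdc20) in the second. The part of signal level in the 2 sets was not tested. Single mice deviated in opposite or in like directions. Replicate 5 of the 25% field was 1.34 above its group in the first set and 0.51 below it in the second (-0.51). Replicate 3 of the 5% field was the reverse, at -1.37 and 1.16. X-ray replicate 5 was low in both (-0.25 and -1.18), as was replicate 5 of the 5% field (-0.44 and -0.51), and x-ray replicate 6 was high in both (0.26 and 0.68).

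**Figure D4:**
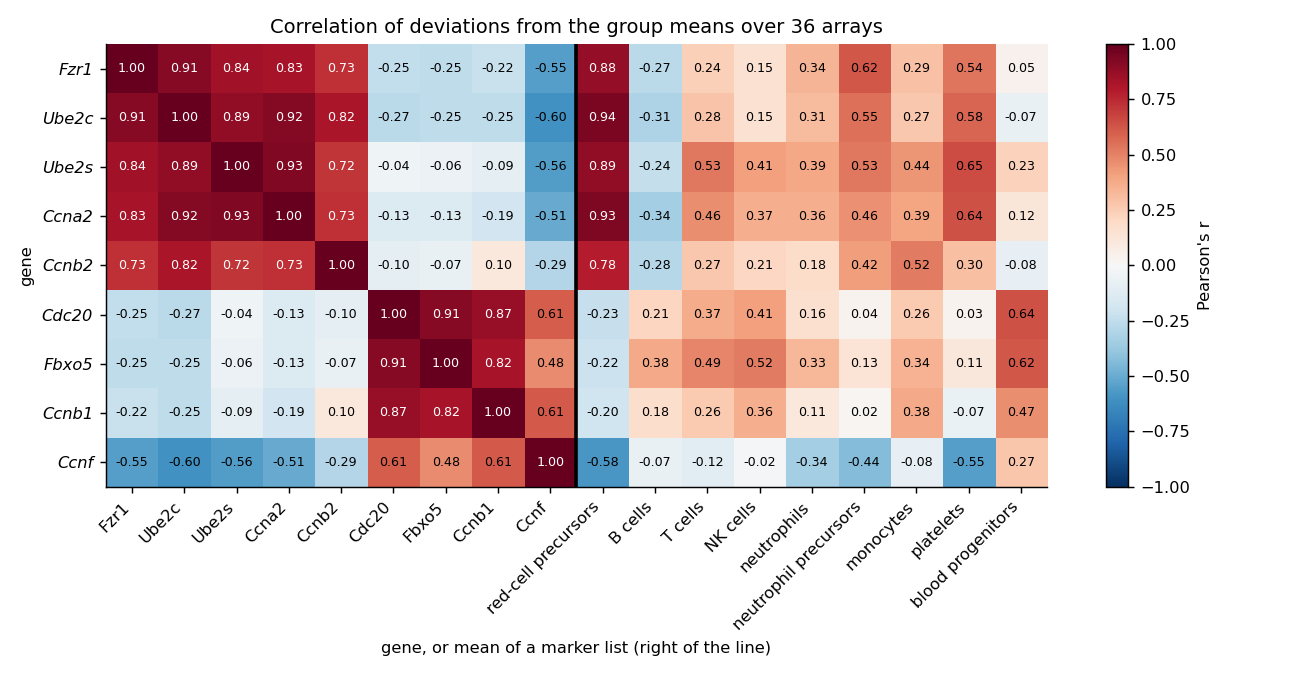
Pearson's r of deviations from the group means over 36 arrays, between the 9 genes (left of the line) and between each gene and the mean of a marker list (right of the line). Red is positive and blue negative. Fzr1, Ube2c, Ube2s, Ccna2, and Ccnb2 form a block that also follows the red-cell precursor list (0.78 to 0.94).

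The first set followed the markers of red-cell precursors (9 genes, among them Klf1 and Gata1), with r of 0.94 for Ube2c, 0.93 for Ccna2, 0.89 for Ube2s, 0.88 for Fzr1, and 0.78 for Ccnb2. The second set did not (-0.23 for Cdc20, -0.22 for Fbxo5, -0.20 for Ccnb1, and -0.58 for Ccnf). Cdc20, Fbxo5, Ccnb1, and Ccnf had r of 0.64, 0.62, 0.47, and 0.27 with a list of blood progenitor markers (5 genes, among them Kit and Cd34). With the other 7 lists, r was between -0.34 (Ccna2 with B cells) and 0.65 (Ube2s with platelets) in the first set and between -0.55 (Ccnf with platelets) and 0.52 (Fbxo5 with NK cells) in the second. Of the 9 red-cell precursor markers, 7 rose against controls after x-rays, 8 in the 5% field, 8 in the 15% field, 6 in the 25% field, and 9 after neutron alone, with 0 lower. Their summed level (log2) was 14.38 to 14.80 in controls, 15.06 to 16.36 after x-rays, 14.30 to 16.06, 14.67 to 16.56, and 14.50 to 16.20 in the 5, 15, and 25% fields, and 15.60 to 16.31 after neutron alone. B-cell markers fell (8 of 8 in the x-ray and mixed field groups and 7 of 8 after neutron alone), and 4 of 6 neutrophil precursor markers rose after x-rays and after neutron alone. The part of these cell types in the changes of the 9 genes was not tested. Between neutron alone and the 25% field, where Ccnb2 differed, 0 of 9 red-cell precursor markers passed the test in either direction, while 7 of 8 B-cell markers were higher after neutron alone (list median 2.73). Of 5 blood progenitor markers, 2 were higher and 1 was lower, and 1 of 6 neutrophil precursor markers and 1 of 5 platelet markers were lower. Against x-rays, 4 of the 9 red-cell precursor markers were lower and 1 was higher after neutron alone, 5 of 8 B-cell markers were higher (list median 2.67), and 2 of 6 neutrophil precursor markers were lower. The part of these markers' cell types in the Ccnb2 difference was not tested.

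Deviations over the 36 arrays were also compared with those of all genes tested. Ccna2 was closest to Bola3 (r = 0.97), Ube2c to Cdc25b (0.96), Ube2s to Uqcrh (0.96), and Ccnb2 to 1190002F15Rik (0.94), followed by Med12 and Uhrf1. Cdc20 was closest to Prc1 (0.94), a spindle midzone protein, and Plk1 (0.94), a mitotic kinase. Ccnb1 was closest to Prc1 (0.91) and Aurka (0.90), another mitotic kinase. Fbxo5 was closest to Stmn1 (0.91), a regulator of microtubules, and then to Cdc20 (0.91). The best value for Ccnf was 0.86.

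Promoters of many late cell cycle genes carry a CHR element (TTTGAA), which MuvB complexes contact, and CCAAT boxes, which NF-Y binds. Because the members moved in 2 sets, their promoters were searched for these letters and for TTCGAA, on both strands, from 250 bases before to 50 bases after the RefSeq start (build GRCm38.p6). An entry was found for 8 of the 9 genes (all but Ccna2). TTTGAA was present in 5 of the 8 (Cdc20, Ube2c, Fbxo5, Ccnb2, and Ccnf) and in 17.9% of all 32851 promoters. The CCAAT letters were present in 7 of the 8 (all but Ube2s) and in 37.4% of all promoters. At least 3 CCAAT matches, as in Ube2c (6), Fbxo5 (3), and Ccnb2 (3), occurred in 3.37%. TTCGAA was found in Ube2s and in 1.56% of promoters. No TTTGAA match of the 8 genes overlapped a CCAAT match. The 5 promoters with TTTGAA are shown, 5′ to 3′ on the gene's strand, from 180 bases before to 20 bases after the start, with matches on either strand in capitals. Read on the gene's strand, a match of the CHR letters on the opposite strand appears as TTCAAA. Likewise, the CCAAT box on the opposite strand appears as ATTGG.
Cdc20, chr4:118437324-118437523, minus strand: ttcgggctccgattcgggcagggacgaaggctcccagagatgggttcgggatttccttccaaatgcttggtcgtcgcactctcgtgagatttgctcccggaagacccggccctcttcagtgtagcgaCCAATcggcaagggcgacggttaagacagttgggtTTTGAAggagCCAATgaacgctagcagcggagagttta
Ube2c, chr2:164769749-164769948, plus strand: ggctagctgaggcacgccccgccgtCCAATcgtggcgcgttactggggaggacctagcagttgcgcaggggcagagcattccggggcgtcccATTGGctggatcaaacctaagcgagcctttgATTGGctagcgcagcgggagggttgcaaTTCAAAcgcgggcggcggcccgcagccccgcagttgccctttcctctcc
Fbxo5, chr10:5805446-5805645, minus strand: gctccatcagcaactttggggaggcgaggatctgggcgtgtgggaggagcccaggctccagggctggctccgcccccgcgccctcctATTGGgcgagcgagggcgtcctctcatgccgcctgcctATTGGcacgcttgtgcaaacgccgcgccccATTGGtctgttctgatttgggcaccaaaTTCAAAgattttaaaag
Ccnb2, chr9:70421535-70421734, minus strand: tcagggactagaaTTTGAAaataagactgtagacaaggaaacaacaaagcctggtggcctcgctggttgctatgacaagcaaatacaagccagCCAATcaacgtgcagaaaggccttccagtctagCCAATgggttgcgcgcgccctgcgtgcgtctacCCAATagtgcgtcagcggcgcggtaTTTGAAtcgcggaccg
Ccnf, chr17:24251390-24251589, minus strand: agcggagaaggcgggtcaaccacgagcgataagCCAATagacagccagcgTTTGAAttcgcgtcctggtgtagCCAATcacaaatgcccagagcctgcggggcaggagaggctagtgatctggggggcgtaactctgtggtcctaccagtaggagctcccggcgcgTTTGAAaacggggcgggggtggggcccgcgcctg

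Ccnb2 and Ccnf each held 2 TTTGAA matches, a number found in 2.31% of promoters (2 or more). The first set of genes (Ube2c and Ccnb2 with TTTGAA, Fzr1 and Ube2s without) and the second (Cdc20, Fbxo5, and Ccnf with, Ccnb1 without) both contained promoters with and without it. A match of letters is a description and not evidence of binding.

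The members work with other proteins of the same pathway, which were described by lists. Counts in the lists were not tested and stand beside the shares of all genes. Of all genes, 12.9, 9.04, 12.6, 10.9, and 16.1% rose after x-rays, in the 5, 15, and 25% fields, and after neutron alone. In the same order, 16.9, 14, 16.5, 13.9, and 20.5% fell. Of 14 APC/C core subunits, 8 passed the filters. After x-rays, 2 of these rose, the tetratricopeptide subunit Cdc27 (2.55 ± 0.38, limma adjusted p = 0.000136) and Anapc13 (1.47 ± 0.16). After neutron alone, 3 rose, Cdc27 (2.53), the cullin subunit Anapc2 (2.45), and Anapc13 (0.67), and 3 fell, Cdc26 (-1.70), Anapc1 (-1.37), and Cdc16 (-0.68). The median of the list was -0.13 after x-rays and -0.23 after neutron alone, close to the medians over all genes. Anapc2 was higher after neutron alone than after x-rays (1.47) and in the 25% field (1.64).

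Of 6 genes measured from the spindle checkpoint, a pathway that restrains CDC20, the kinase gene Bub1 rose after x-rays (1.65 ± 0.30, limma adjusted p = 0.000623), and Bub3 fell after neutron alone (-0.73). Of 13 other APC/C substrates measured, 4 rose after x-rays, 8, 10, and 10 in the 5, 15, and 25% fields, and 4 after neutron alone, with 0 lower. Cdca3, a protein of mitotic entry, rose by 3.99 ± 0.35 after x-rays (limma adjusted p = 3.24e-06) and by 1.57 ± 0.21 after neutron alone (limma adjusted p = 3.76e-05), and it was lower after neutron alone than after x-rays (-2.41) and in the 25% field (-2.83). Rrm2, a subunit of ribonucleotide reductase, rose by 2.65 and 1.98. Pttg1, which encodes securin, rose by 1.38 and 2.15.

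Of 9 cyclin-CDK partners measured, 3 rose and 1 fell after x-rays. Cks1b, a CDK-binding subunit, rose by 2.28, the CDK inhibitor Cdkn1a, a target of p53, by 2.25, and the phosphatase Cdc25b by 1.38, and Pkmyt1 (-1.56), a kinase that inhibits CDK1, fell. After neutron alone Cdc25b (1.71) and Cdkn1a (1.19) rose, and Cdk2 (-1.33) and Pkmyt1 (-1.32) fell. Cdk1 itself, the kinase of the B cyclins, rose in the 5, 15, and 25% fields (2.85, 2.84, and 2.81), and its values after x-rays (1.36, limma adjusted p = 0.0161) and neutron alone (1.48, limma adjusted p = 0.0109) did not pass. Of 4 G1 and S phase cyclins and kinases measured, 0 passed by limma after x-rays or neutron alone, and Ccnd1 (cyclin D1) rose in the 5, 15, and 25% fields (2.70, 2.55, and 2.40). The kinase gene Cdk4 fell in the 15% field (-1.12).

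Of 14 cell cycle transcription factors, 4 rose and 2 fell after x-rays, and 3 rose and 1 fell after neutron alone. Over all genes, 29.8% passed in either direction after x-rays and 36.6% after neutron alone, so these counts are not read as a response of the list. Foxm1, an activator of mitotic genes, rose by 2.92 ± 0.32 after x-rays and by 1.76 ± 0.17 after neutron alone, and was lower after neutron alone than in the 25% field (-1.42). E2f2 rose by 2.39 and 2.40. Lin9, a MuvB subunit, fell by 1.76 and 1.79. Among 3 partners of cyclin F in the SCF ligase, Skp1a rose after x-rays (1.42) and after neutron alone (1.74), and Rbx1 (-0.89) fell after x-rays.

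**Figure D5:**
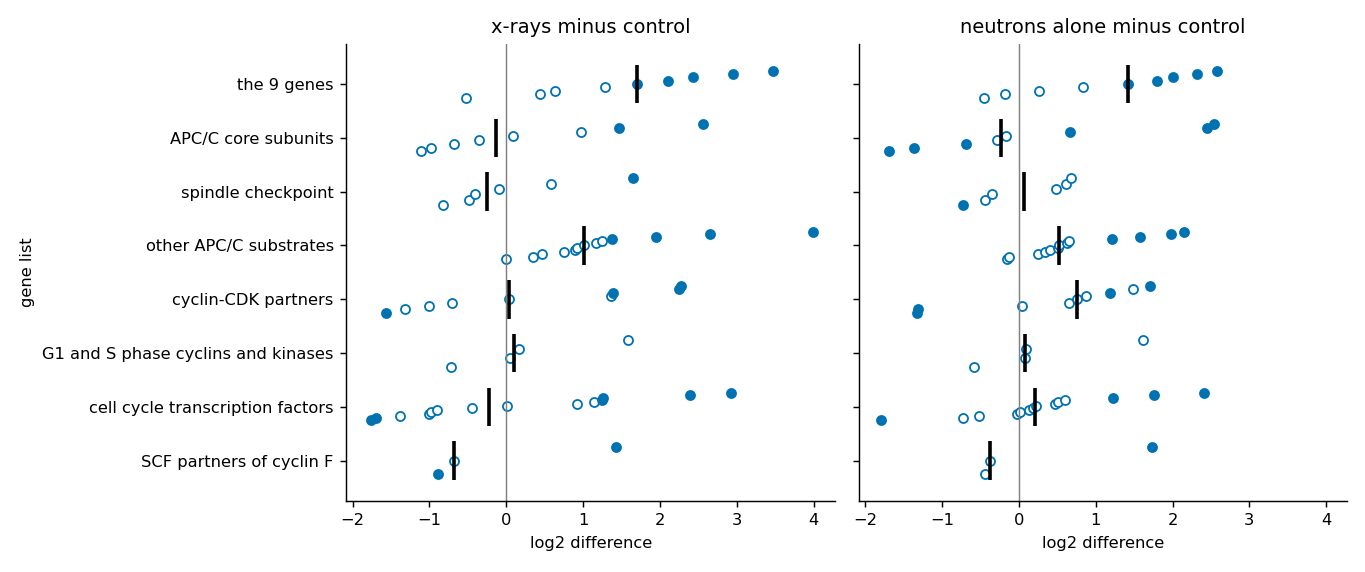
Log2 difference from controls (x axis) after x-rays (left) and neutron alone (right) for the 9 genes and the 7 pathway lists (y axis). Each point is a gene, filled where it passed the test, and bars are list medians, which were 1.70 and 1.42 for the 9 genes and 1.01 and 0.52 for the other APC/C substrates.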

How the data were processed

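Blood RNA of each mouse was hybridized to a 1-colour Agilent array. The authors deposited an intensity for each spot, on a linear scale, from which Agilent Feature Extraction 12.0.2 had subtracted background and which was not normalized between arrays. They also deposited normalized log2 values for the series, used here as an alternative. Computations used R 4.3.3 with limma 3.58.1 (tables were read with the package data.table, 1.17.8). The log2 intensities of uniform spots were averaged per probe, and the array median was subtracted. A probe was kept if more than 75% of arrays showed it uniform and above background and at least 20% of arrays lay 1.5-fold or more from its median (17963 probes). The brightest probe represented a gene. The 10 comparisons used limma on 12 arrays each, and exact two-sided permutation tests for single values. Members and gene lists were chosen with earlier results of these data known. From each list, at most the 2 passing genes with the largest changes after x-rays and after neutron alone were named, and any gene of a list with 5 or fewer passing or not passing. Genes of most similar deviation were the 3 with the highest r, and some of these are not reported here. Scripts were tested on simulated data. The number of arrays limits the precision. RefSeq matched 9 of 9 symbols. Figures used Python 3.11.15, pandas 2.3.3, and matplotlib 3.10.9.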

Additional observations from a re-analysis of the deposited data

Results flagged for a closer look

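Of 54 sets of 6 arrays (9 genes in 6 groups), 8 held a mouse whose distance from the nearest other mouse exceeded Dixon's limit for 6 values, where chance gives about 1 in 20. Replicate 5 of the 25% field accounted for 4 of these, with levels of 10.31 for Fzr1, 12.77 for Ube2c, 11.16 for Ube2s, and 8.91 for Ccna2. The next highest mice of the group were at 8.84, 11.33, 9.82, and 7.72. In the same group, replicate 6 was high in Fbxo5 (3.28). Neutron alone replicate 2 was high in Ccnb1 (2.90, next highest 1.5). For Ccnf, x-ray replicate 5 was low (-0.15, next 1.16), and replicate 3 of the 5% field was high (3.56, next 2.06).

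Ccnb2 was the gene whose level after neutron alone differed by test both from x-rays (-2.05) and from the 25% field (-1.61). The x-ray arrays were scanned in other sessions than those of neutron alone.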

How the results depend on the processing

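Results were recomputed under 16 planned and 2 added settings and with each of 36 arrays left out. Without 1 array, 5 to 6 genes passed after x-rays, 5 to 7, 6 to 7, and 6 to 8 in the 5, 15, and 25% fields, 5 to 5 after neutron alone, 0 to 0 for each mixed field against x-rays, 1 to 1 for neutron alone against x-rays, and 1 to 3 against the 25% field (3 without neutron alone replicate 2). Under normexp background correction the counts were 1 after x-rays, 0 in the 5% and 25% fields, 0 after neutron alone, and 0 for neutron alone against x-rays and the 25% field. On 11 arrays normexp fitted a background mean below -100 (lowest -1431), and their medians were 8.10 to 10.7, against 6.13 to 6.96 on the others. There Cdc20 was at -0.23 after x-rays, -0.38 in the 5% field, and -0.63 after neutron alone, Ube2c at -0.27 in the 5% field, and Ccnb2 at -0.13 after neutron alone. With the fit made without spots far below local background, chosen after seeing the data, 3 of 8 genes tested were lower after neutron alone than in the 25% field (Ccna2, Ccnb1, and Ccnb2). Fbxo5 then fell after neutron alone (-0.71), and Cdc20 was at -0.012 after x-rays and -0.28 after neutron alone.

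For neutron alone against the 25% field, 2 genes passed in a single model of 36 arrays and 3 at an adjusted p below 0.05 alone. With slide or scan session as a block, which leaves 1 array of each group to compare directly, 0 genes passed in the 5% field, and 0 (slide) or 1 (session) in the 15% field. Scaling on the 75th percentile moved all differences from controls by 0.13 to 0.35 (0.27 after neutron alone, where the median of all genes became 0.15), and Ccnf was then at 0.093 after neutron alone (0.015 when centred on probes well above background, and -0.48 to 0.011 without 1 array, above 0 without neutron alone replicate 4). With a replicate block, 5, 5, 6, 7, and 5 genes passed against controls in the order x-rays, 5, 15, 25%, and neutron alone, and 1 (Ccnb2) for neutron alone against x-rays and against the 25% field. Arrays of the same number did not deviate together (mean r 0.037 over 90 pairs, -0.006 over 450 others). The Ccnb2 differences of neutron alone from x-rays and from the 25% field kept their direction in the 17 of these settings that could be fitted, and passed in all 17 but normexp (limma adjusted p = 0.678 against x-rays, 0.108 against the 25% field).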
